A study of Mus musculus with 25 samples.

Results

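The miR-200 family is a set of 5 microRNAs (miRNAs, short RNAs that lower the output of the messenger RNAs they pair with): mmu-miR-200a-3p, mmu-miR-200b-3p, mmu-miR-429-3p, mmu-miR-200c-3p and mmu-miR-141-3p, written below without the species prefix. These 5 guide arms were chosen by name, as the strands of the 5 precursors that are usually loaded into the silencing complex, and they are 5 of the 1493 entries of the count table, 1095 of which carry the name of a mouse miRNA. They were counted in small extracellular vesicles, membrane-bound particles released by cells, isolated from liver of wild-type C57BL/6J mice of 5 ages: 1 week, 6 weeks, 6 months, 12 months and 14 months. Each age had 5 libraries, 25 libraries in all, and each numbered library is taken here as 1 mouse. No treatment, transgene or genetic change distinguished the groups. The livers had been kept frozen and were then dissociated with a kit made for human tumour tissue, so vesicles from every cell type of the liver, and from the blood in it, could be present.

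MiR-200 miRNAs are textbook markers of epithelium. They hold down the transcription repressors Zeb1 and Zeb2, which in turn repress both miR-200 loci and E-cadherin, and this mutual repression separates epithelial from mesenchymal states. In liver they are associated with the biliary epithelium lining the bile ducts and are scarce in hepatocytes. The bile ducts of a mouse are still being remodelled in the first weeks after birth.

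The 5 sequences are shown because they divide the family in a pair of ways that do not coincide, by seed and by genomic cluster. The seed (bases 2 to 8 from the 5′ end, in capitals) is the stretch that mainly selects targets. RefSeq holds an entry for all 5.
miR-200a-3p: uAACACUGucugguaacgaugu
miR-141-3p: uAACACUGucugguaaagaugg
miR-200b-3p: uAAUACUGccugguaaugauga
miR-429-3p: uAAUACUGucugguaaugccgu
miR-200c-3p: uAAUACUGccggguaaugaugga
MiR-200a-3p and miR-141-3p share the seed AACACUG, and the other members share AAUACUG. No other mouse miRNA of the RefSeq table carries either seed. Counted from the 5′ end, the seeds differ at position 4 (C4U from miR-200a-3p to miR-200b-3p). MiR-200a-3p and miR-141-3p, which lie on different chromosomes, differ at only 2 of 22 positions (C17A and U22G). MiR-200b-3p and miR-200c-3p, also on different chromosomes, likewise differ at 2 of 22 (U11G and A22G). MiR-200b-3p and miR-429-3p, neighbours with the same seed, differ at 4 of 22 (C9U, A19C, U20C and A22U). How many mismatches the authors' counting allowed is not given in the sources used here, so some reads of such near-identical members may have been counted for the other.

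In the mouse build GRCm38 (mm10), Mir200b, Mir200a and Mir429 lie on the minus strand within 1846 bases of chromosome 4, at 156053905 to 156055750. All 3 are in an intron of Ttll10 on the same strand. Mir200b and Mir200a are also intronic to the noncoding transcript Gm13648, and Mir429 lies in an exon of it. Mir200c and Mir141 lie on the minus strand within 477 bases of chromosome 6, at 124717914 to 124718390, in an intron of the noncoding gene Gm15884. Mir141 also overlaps an exon of the uncurated transcript Gm29008, and the nearest protein-coding gene is Phb2, 964 bases from Mir141 and 1372 from Mir200c. The falls of miR-200b-3p and miR-429-3p from 1 week to 6 weeks were 2.70-fold and 4.60-fold. The test of their ratio, given below, did not pass (exact permutation test, adjusted p = 0.0794). The hairpins of these neighbours, Mir200b (70 bases, 156055681 to 156055750) and Mir429 (83 bases, 156053905 to 156053987), are shown, guide arm in capitals, because their guides share a seed and a transcript.
Mir200b: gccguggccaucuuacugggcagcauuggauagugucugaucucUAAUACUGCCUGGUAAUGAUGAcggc
Mir429: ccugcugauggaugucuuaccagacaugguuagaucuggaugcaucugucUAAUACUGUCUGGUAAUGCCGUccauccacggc

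Library totals ran from 641579 to 6888928 counts, with a median of 2604728 at 1 week and 1012376 at 6 weeks. Mouse 27 at 1 week gave the deepest library, and it holds 14508 of the 29950 family counts of its age. The label for batch repeats the age, so age and any difference in handling cannot be told apart. Levels are given as counts per 1000000 (CPM) after scaling with TMM factors, which estimate a common scale from the bulk of the entries. These factors were 1.30 to 1.78 at 1 week and 0.720 to 1.08 in the adult libraries, so the choice of scaling bears on every difference from 1 week. Markers of other cells moved with age as well: of the tested members of each list, 5 of 5 hepatocyte miRNAs were higher at 6 weeks than at 1 week, 4 of 5 erythroid and 5 of 6 leukocyte miRNAs were lower, and 2 of 2 skeletal and heart muscle miRNAs were lower, beside 35% of all tested entries called higher and 36.8% called lower. Of the endothelial miRNAs 1 of 2 and of the stellate and smooth muscle miRNAs 3 of 7 were higher. With library totals alone as the scale, 3 of the 5 hepatocyte miRNAs passed as higher and 5 of 5 erythroid miRNAs as lower. On that scale 1 of 2 endothelial miRNAs was lower, and of the stellate and smooth muscle miRNAs 1 was higher and 4 were lower. Beside these, 88 of all 391 tested entries were called higher and 178 lower with library totals alone.

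All 5 members fell between 1 week and 6 weeks of age. The fall was 4.60-fold for miR-429-3p, 2.70-fold for miR-200b-3p, 2.62-fold for miR-200c-3p, 2.18-fold for miR-200a-3p and 2.14-fold for miR-141-3p. Summed over the family, the level was 1085 ± 207 CPM (SD, n = 5) at 1 week and 414 ± 42.1 CPM (SD, n = 5) at 6 weeks. By edgeR's quasi-likelihood test with Benjamini-Hochberg adjustment over the 391 entries that passed the filter on low counts, 5 of 5 members were called lower. In this comparison 36.8% of all tested entries were called lower and 71.9% were called in either direction (35% higher), so a call by itself was common. In a vesicle preparation, fewer vesicles from a cell type and less of a miRNA per vesicle cannot be told apart.

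**Figure D1:**
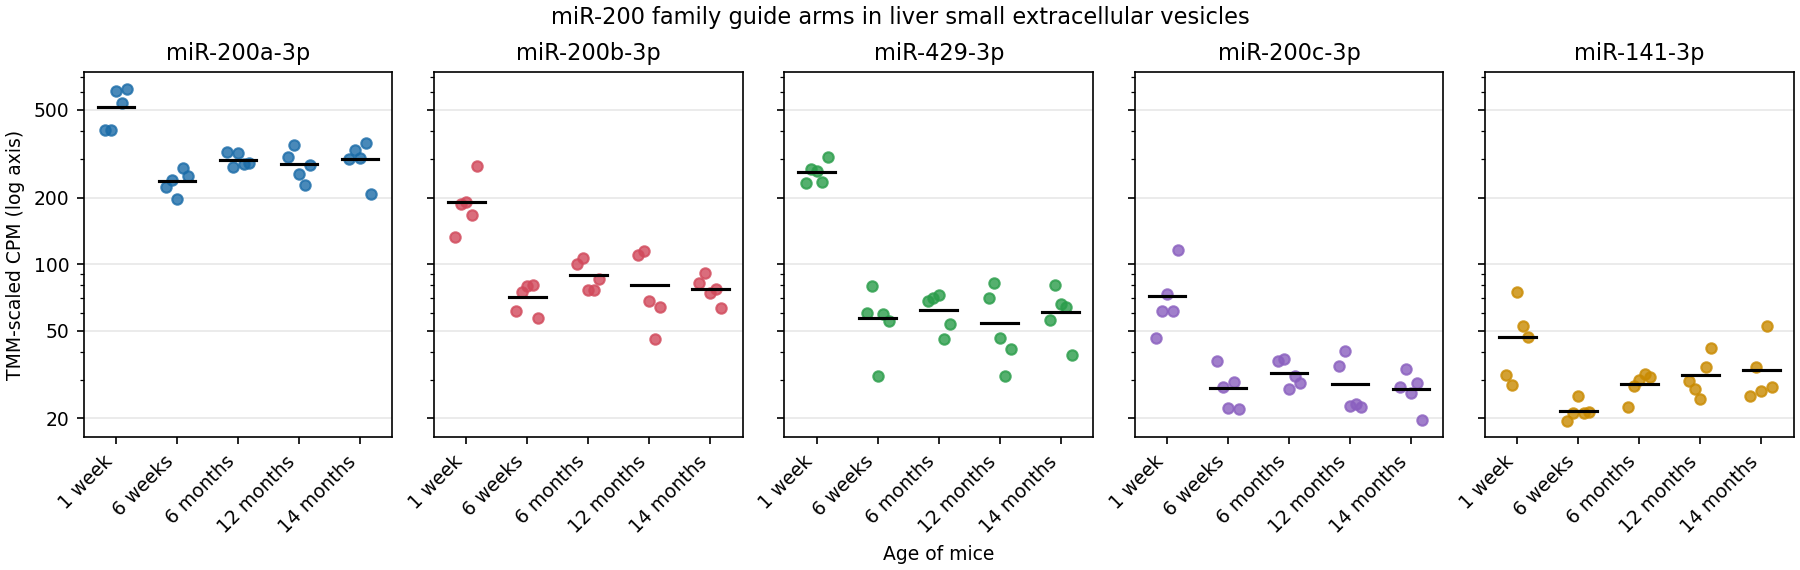
TMM-scaled CPM (log axis) of the 5 guide arms against age, 1 point per mouse and a black line at the mean of 5 mice. In every panel the 1-week points include the highest values, and the 6-week points lie below all 1-week points.

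MiR-429-3p had the largest fall of the 5. Its level was 233, 268, 264, 235 and 305 CPM in the 1-week libraries. At 6 weeks it was 60.0, 79.9, 31.0, 59.3 and 55.3 CPM. The highest 6-week library was thus far below the lowest 1-week library, and its relative spread at 1 week was the smallest of the 5 members. The log2 fold change was -2.20 ± 0.26 (SE; edgeR adjusted p = 4.43e-08).

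Its neighbour miR-200b-3p, with the same seed, was at 132, 187, 190.4, 166 and 279 CPM at 1 week. At 6 weeks it was at 61.4, 75.1, 79.4, 80.5 and 57.1 CPM. The groups did not overlap, and the highest value was that of mouse 27. The log2 fold change was -1.43 ± 0.23 (SE; edgeR adjusted p = 5.87e-06).

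MiR-200a-3p, the third product of the chromosome 4 cluster and the most abundant member at every age, was at 403, 404, 607, 539 and 621 CPM at 1 week. At 6 weeks it was at 223, 239.8, 197, 273 and 250.4 CPM. Mice 1 and 3 were lower than the remaining 1-week mice, and all 5 were above the 6-week libraries. The log2 fold change was -1.12 ± 0.17 (SE; edgeR adjusted p = 1.60e-06), with the smallest SE of the 5.

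On chromosome 6, miR-200c-3p was at 46.3, 61.2, 72.9, 61.0 and 116 CPM at 1 week. At 6 weeks it was at 36.3, 27.7, 22.3, 29.2 and 22.0 CPM. Mouse 27 again had the highest value, and the nearest libraries of the groups, at 46.3 and 36.3 CPM, were closer than for miR-200b-3p. The log2 fold change was -1.39 ± 0.26 (SE; edgeR adjusted p = 3.12e-05).

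MiR-141-3p, the least abundant member at 1 week, was at 31.5, 28.3, 74.7, 52.2 and 46.7 CPM at that age. At 6 weeks it was at 19.5, 21.2, 25.2, 21.2 and 21.4 CPM. The groups came close, with 28.3 CPM in the lowest 1-week library and 25.2 CPM in the highest 6-week library, but did not overlap. The log2 fold change was -1.10 ± 0.27 (SE; edgeR adjusted p = 0.000718). Its counts were also the lowest of the family, down to 13 in a library.

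For all 5 members every 6-week library lay below every 1-week library, which held for 28.6% of all tested entries. The median log2 fold change of the members was -1.39, against 0.12 for all tested entries, and 28.9% of tested entries had a lower value than the members' median. The members' fall was therefore not among the extremes of this comparison.

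The direction of the fall was the same under each scaling tried, but its size was not. With DESeq2 size factors the members' median was -1.85 and that of all tested entries -0.35. With library totals alone these medians were -2.04 and -0.54. The median of all entries thus shifted by -0.46 and -0.66 log2 units, and the members' distance from it was -1.51, -1.50 and -1.50. A change of scale shifts all entries by about the same amount, so this distance could hardly differ. With scaling that left out miR-122-5p the distance was -1.44. The split of all called entries into higher and lower moved from 137 and 144 with TMM to 107 and 165 with DESeq2 size factors and 88 and 178 with library totals.

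A scale within each library, the count of the hepatocyte miRNA miR-122-5p, gave the same direction. This was not a separate check, because miR-122-5p held most of the counts at both ages. Dividing by it therefore nearly repeats the scaling by library totals, under which the members' log2 fold changes ran from -2.87 to -1.72. Per 1000 counts of miR-122-5p, miR-200a-3p was at 1.29 ± 0.288 at 1 week and 0.401 ± 0.0637 at 6 weeks (SD, n = 5 each, exact two-sided permutation test p = 0.00794). The log2 differences on this scale were -2.82 for miR-429-3p, -1.98 for miR-200b-3p, -1.90 for miR-200c-3p, -1.68 for miR-200a-3p and -1.59 for miR-141-3p. Each of the 5 had the same exact p of 0.00794, the smallest that 5 against 5 libraries allow.

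**Figure D2:**
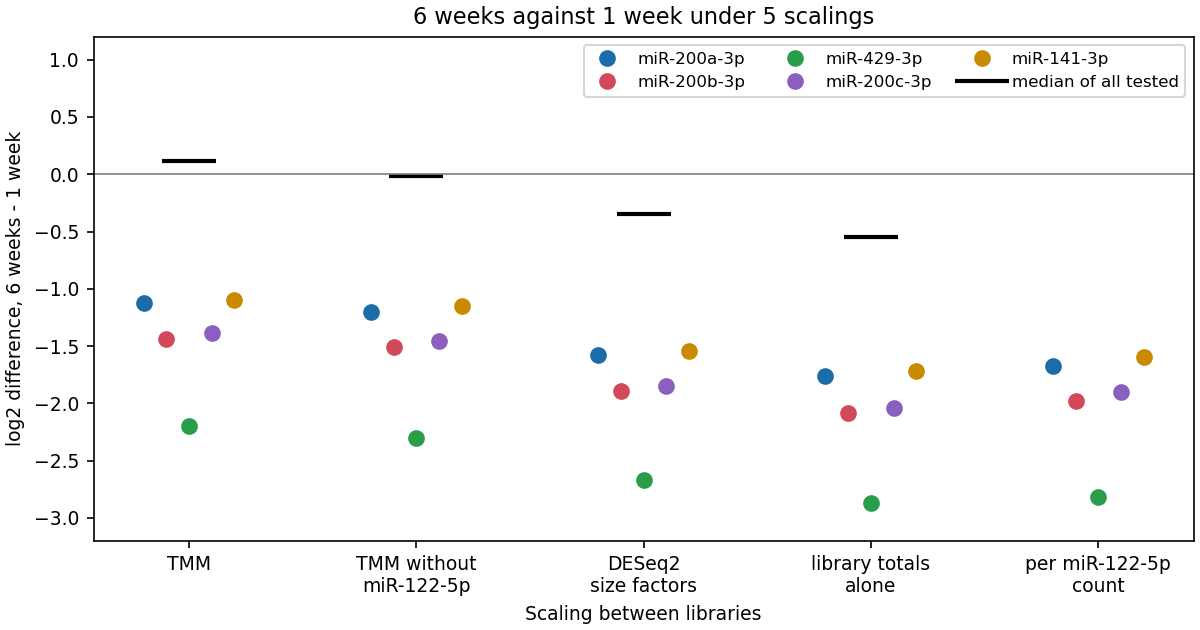
Log2 difference of 6 weeks from 1 week (vertical axis) for the 5 members under 5 scalings; black bars mark the median of all tested entries, drawn for the 4 scalings fitted across entries. All points lie below 0 and below the bars, and miR-429-3p is lowest under each scaling.

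The family's makeup differed between 1 week and the adult ages mainly in miR-429-3p. Of the family's counts, miR-429-3p held 24.5% ± 3.19 at 1 week and 13.6% ± 3.38 at 6 weeks (SD, n = 5 each), and 12.1%, 11.0% and 12.2% at 6, 12 and 14 months. Its share was 21.8% to 28.3% in the 1-week libraries and 8.63% to 18.0% in the 20 adult libraries, with no overlap. MiR-200a-3p took the larger part of the difference, with 47.4% ± 3.51 at 1 week and 57.2% ± 3.07 at 6 weeks. The shares of miR-200b-3p (17.4% and 17.2%) and miR-200c-3p (6.44% and 6.66%) at these ages differed by less than their spread. MiR-141-3p held 4.25% ± 1.30 and 5.32% ± 1.03.

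By genomic cluster, the chromosome 4 cluster supplied 89.3% ± 1.37 of family counts at 1 week, 88.0% ± 1.55 at 6 weeks and 87.8% ± 1.52 at 14 months (SD, n = 5 each). In CPM, the chromosome 4 sum was 967 ± 171 at 1 week and 364 ± 41.6 at 6 weeks, and the chromosome 6 sum was 118 ± 36.4 and 49.2 ± 4.52. By seed, members with AACACUG held 51.7% ± 4.68 of family counts at 1 week, 62.5% ± 3.06 at 6 weeks and 66.6% ± 2.42 at 14 months. These shares were not tested. The cluster that holds miR-429-3p, with a lower mean share at 6 weeks, also holds miR-200a-3p, with a higher one.

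Ratios of member counts within a library need no scaling between libraries, and all 10 pairs were tested for 6 weeks against 1 week and for 14 months against 6 weeks. None of the 10 pairs passed for 6 weeks against 1 week. The exact permutation test adjusted over the 20 tests gave no adjusted p below 0.0794. The smallest p that 5 against 5 libraries allow is 0.00794. After adjustment over 20 tests, even a pair without overlap could pass only if several other pairs also reached that p. The lack of calls therefore does not show that the ratios were alike. The 4 pairs that include miR-429-3p had the smallest p. MiR-200a-3p exceeded miR-429-3p by 0.96 ± 0.27 log2 units at 1 week and by 2.09 ± 0.40 at 6 weeks, a 2.19-fold difference without overlap (SD, n = 5 each, exact permutation p = 0.00794, adjusted p = 0.0794). MiR-200b-3p lay at -0.49 ± 0.25 log2 units relative to miR-429-3p at 1 week and at 0.35 ± 0.59 at 6 weeks (1.79-fold, exact permutation p = 0.00794, adjusted p = 0.0794, no overlap). The order of their means thus turned, but the 6-week libraries were at 0.03, -0.09, 1.34, 0.44 and 0.05, with mouse 8 highest.

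Against the members from chromosome 6 the same held for miR-429-3p, with overlapping groups. Its ratio to miR-200c-3p was 1.90-fold lower at 6 weeks than at 1 week, and its ratio to miR-141-3p 2.37-fold lower (exact permutation p = 0.0159 and adjusted p = 0.0794 for each). The 6 pairs without miR-429-3p had adjusted p values from 0.357 to 0.735. Among these, miR-200b-3p to miR-200c-3p, which share a seed but not a chromosome, differed least, by -0.09 log2 units between the ages. In all 20 adult libraries the ratios of miR-200a-3p and of miR-200b-3p to miR-429-3p lay above every 1-week library.

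**Figure D3:**
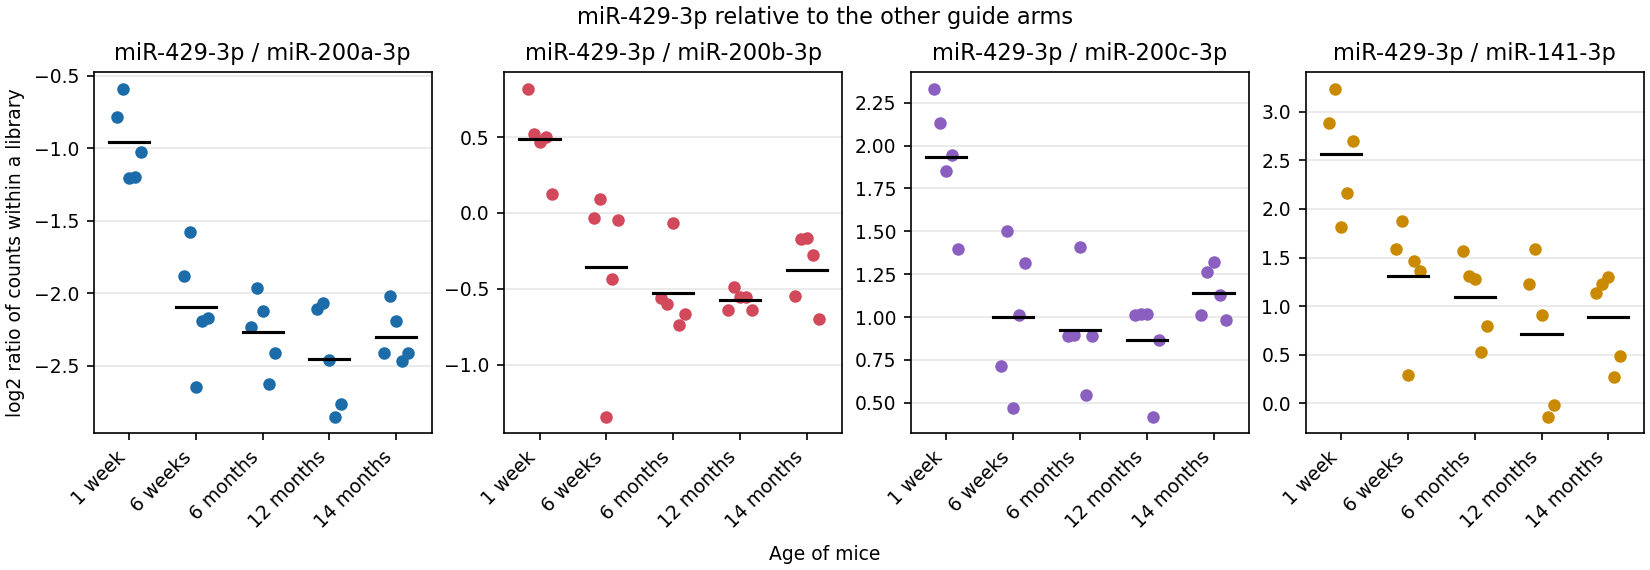
Log2 ratio of miR-429-3p counts to those of each other member within a library, by age, 1 point per mouse and a black line at the mean; each panel has its own vertical scale. The 1-week mean is highest in each panel, without overlap with the adult points for miR-200a-3p and miR-200b-3p.

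Among the adult ages no member passed a test. Over all 5 ages the joint edgeR test called 5 of 5 members, as it did 75.4% of tested entries. Over the 4 adult ages it called 0 of 5, with adjusted p values from 0.508 to 0.939, 0 of 5 at an unadjusted p under 0.05 and 0 of 5 by DESeq2. The joint adult test called 2.56% of all tested entries. For miR-141-3p the call over 5 ages (edgeR adjusted p = 0.00929) was lost without mouse 4 at 1 week (adjusted p = 0.0501), without mice 6 and 7 at 6 weeks (adjusted p = 0.123) and with library depth as a covariate (adjusted p = 0.219).

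The adult family sum was 414 ± 42.1 CPM among the 6-week mice, 508 ± 30.7 CPM among those of 6 months, 478 ± 101 CPM for 12 months and 497 ± 87.9 CPM for 14 months (SD, n = 5 each). MiR-200a-3p averaged 237 ± 28.6, 297 ± 21.0, 283 ± 45.7 and 298 ± 55.3 CPM at these ages. In order of its levels, 1 week was highest without overlap, and the adult ages followed as 14 months, 6 months, 12 months and 6 weeks, each overlapping the next. MiR-200b-3p averaged 70.7 ± 10.8, 88.9 ± 13.7, 80.6 ± 30.3 and 77.4 ± 10.2 CPM from 6 weeks to 14 months, with its adult order running from 6 months through 12 and 14 months to 6 weeks. MiR-200c-3p averaged 27.5 ± 5.86, 32.2 ± 4.48, 28.7 ± 8.27 and 27.1 ± 5.02 CPM, ordered 6 months, 12 months, 6 weeks and 14 months. MiR-429-3p averaged 57.1 ± 17.5, 62.0 ± 11.6, 54.2 ± 21.2 and 61.0 ± 15.3 CPM, ordered 6 months, 14 months, 6 weeks and 12 months. Neighbours in these orders overlapped for every member, and the orders differed among the members. For these 4 members all 20 adult libraries lay below all 1-week libraries, as for 25.3% of tested entries.

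Among the adult ages, the libraries at 12 months were the most dispersed for the AAUACUG members. MiR-429-3p was at 70.4, 82.1, 46.2, 31.2 and 41.1 CPM there, and miR-200b-3p at 109.9, 115, 68.0, 46.0 and 64.2 CPM. Mice 16 and 17 were high for both, and also for miR-200c-3p at 34.6 and 40.3 CPM against 22.5 to 23.3 CPM in the remaining mice of that age. MiR-200a-3p, with the other seed, was also highest in them, at 305 and 346 CPM against 227 to 280 CPM. MiR-141-3p was not, at 29.6 and 27.1 CPM against 24.4 to 41.7 CPM. The libraries of mice 16 and 17 are the shallowest at 12 months, and the part of depth in this was not tested.

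On the TMM scale, miR-141-3p differed from the other members in that its adult libraries reached into the 1-week range. It averaged 21.7 ± 2.08, 28.6 ± 3.63, 31.5 ± 6.80 and 33.3 ± 11.3 CPM from 6 weeks to 14 months. The number of libraries below all 1-week libraries was 5 of 5 at 6 weeks, 2 of 5 at 6 months, 2 of 5 at 12 months and 3 of 5 at 14 months. At 14 months the TMM-scaled values of miR-141-3p were 25.4, 34.2, 26.6, 52.6 and 27.7 CPM. Mouse 24 was highest, and every library was above the 6-week maximum of 25.2 CPM. That order, every 14-month library above every 6-week library, held for 5.88% of tested entries. The log2 fold change of 14 months against 6 weeks was 0.61 ± 0.27 (SE), with an unadjusted p of 0.0333 and an adjusted p of 0.199 by edgeR, so it did not pass.

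No member passed in any pairwise adult comparison. From 6 weeks to 6 months all 5 log2 fold changes were positive, from 0.13 for miR-429-3p to 0.40 for miR-141-3p, with edgeR adjusted p values from 0.600 to 0.947. Of all tested entries 1.79% were called, 1.02% as higher. For 12 against 6 months they ran from -0.21 to 0.14, and for 14 against 12 months from -0.07 to 0.18. In each of these comparisons edgeR and DESeq2 called 0 of 391 entries, and edgeR gave 28 and 8 entries an unadjusted p under 0.05. For 14 months against 6 weeks, where 3.84% of entries were called (3.32% higher and 0.512% lower), miR-200a-3p was at 0.33 ± 0.17 (SE, edgeR adjusted p = 0.222). The values of miR-200b-3p, miR-429-3p and miR-200c-3p in that comparison were 0.13 ± 0.23, 0.10 ± 0.26 and -0.01 ± 0.26. Per miR-122-5p count, the exact permutation p values of the 5 members for 14 months against 6 weeks ran from 0.103 to 0.817. The 14-month ratio tests, with the same limit on the smallest p, also called 0 of 10 pairs, with exact permutation p values adjusted to between 0.159 and 1.

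**Figure D4:**
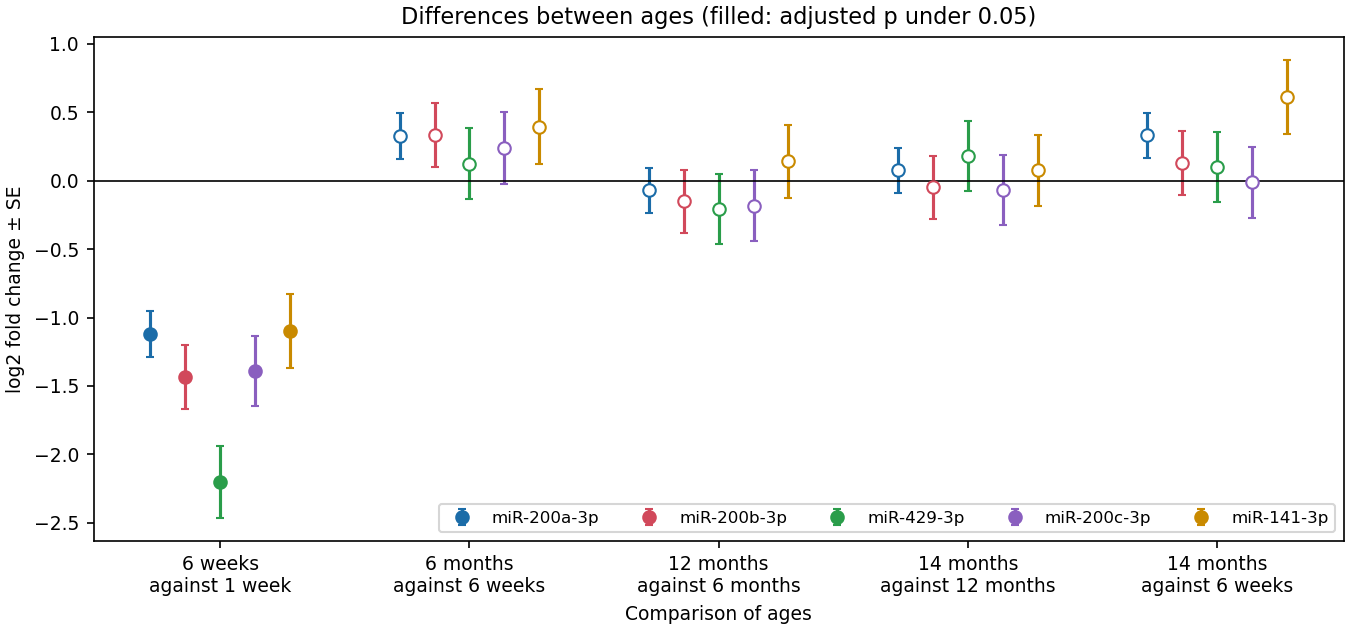
Log2 fold change with its SE (vertical axis) of each member in 5 comparisons of ages (horizontal axis); filled points have an adjusted p under 0.05. The 5 filled points are those of 6 weeks against 1 week, and the adult points lie between -0.21 and 0.61.

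Over the 20 adult libraries the members varied with coefficients of variation of 16.1% for miR-200a-3p, 20.6% for miR-200c-3p, 22.7% for miR-200b-3p, 26.8% for miR-429-3p and 27.1% for miR-141-3p. Counting error alone gives 5.42%, 16.5%, 10.0%, 11.8% and 17.5% in the same order if each count is a separate molecule, which the sources used here do not state. The members' abundance ranks among the named miRNAs were 58 for miR-200a-3p, 81 for miR-429-3p, 97 for miR-200b-3p, 139 for miR-200c-3p and 158 for miR-141-3p at 1 week. At 6 weeks the ranks were 77, 127, 116, 153 and 165, so by mean level miR-429-3p passed from above to below miR-200b-3p.

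The opposite strands of the hairpins, the 5p or passenger arms, are usually degraded and show how strongly each precursor favours its guide. Those of the chromosome 4 precursors with an entry are given with the seed in capitals, since both carry the seed AUCUUAC.
miR-200a-5p: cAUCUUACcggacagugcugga
miR-200b-5p: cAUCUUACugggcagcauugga
No 5p arm passed the filter on low counts, and miR-429-5p was not analysed here. MiR-200a-5p made up 161 of the 14170 counts of both arms at 1 week, 1.14% (95% exact Clopper-Pearson interval 0.968% to 1.32%), and 44 of 8532 in the adult libraries, 0.516% (0.375% to 0.692%). The share by library overlapped, from 0.590% to 2.58% at 1 week and from 0% to 1.46% in adults. These intervals cover counting error only. MiR-200b-5p made up 2.31% (1.94% to 2.74%) at 1 week and 1.69% (1.21% to 2.30%) in adults, with overlapping intervals. MiR-200c-5p had 0 of 2145 counts at 1 week, where a floor of 3 counts allows a share of up to 0.140% and the exact interval one of up to 0.172%, and 2 of 840 in adults. MiR-141-5p made up 2.83% at 1 week, but 1.12% there without mouse 27. Among adults it had 0 of 113 counts at 6 weeks (a floor of 3 counts allows up to 2.65%), 1 of 181 at 6 months, 11 of 320 (3.44%) at 12 months and 14 of 339 (4.13%) at 14 months. The guide arm was thus the dominant product of these 4 precursors at 1 week and in the pooled adult libraries.

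The other miRNAs used as epithelial markers differed in direction among themselves. Of 7, all tested, 1 was higher at 6 weeks than at 1 week, 2 were lower and 4 did not pass, beside 35% of all tested entries called higher and 36.8% called lower. The list's median log2 fold change was -0.30, beside -1.39 for the family and 0.12 for all tested entries, and the difference between the lists was not tested. With DESeq2 size factors or library totals 1 was higher and 4 were lower. Of all 391 tested entries, 107 were then called higher and 165 lower with DESeq2 size factors, and 88 and 178 with library totals. MiR-203-3p, a miRNA of stratified epithelium such as skin, rose from 256 ± 30.9 to 828 ± 95.3 CPM (SD, n = 5 each; log2 fold change 1.69 ± 0.16, edgeR adjusted p = 1.18e-09). MiR-375-3p, known from pancreatic islets and neuroendocrine cells, fell from 9.89 ± 6.19 to 0.534 ± 0.797 CPM with 4 counts in all at 6 weeks (-3.68 ± 0.79, edgeR adjusted p = 0.000184). MiR-205-5p, of squamous and basal epithelium, fell from 26.6 ± 12.2 to 6.66 ± 8.25 CPM (-2.03 ± 0.76, edgeR adjusted p = 0.0200), and without mouse 8 at 6 weeks its adjusted p was 0.0510. MiR-31-5p (-0.30 ± 0.23) and the clustered miR-182-5p (0.45 ± 0.22), miR-183-5p (-0.02 ± 0.31) and miR-96-5p (-0.56 ± 0.35) did not pass. For 14 months against 6 weeks miR-182-5p was higher (0.77 ± 0.22, edgeR adjusted p = 0.0445), a call kept in 17 of 37 alternatives. These counts do not assign the miR-200 members to biliary cells or any other source, and the family is described here by its sequences and loci.

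**Figure D5:**
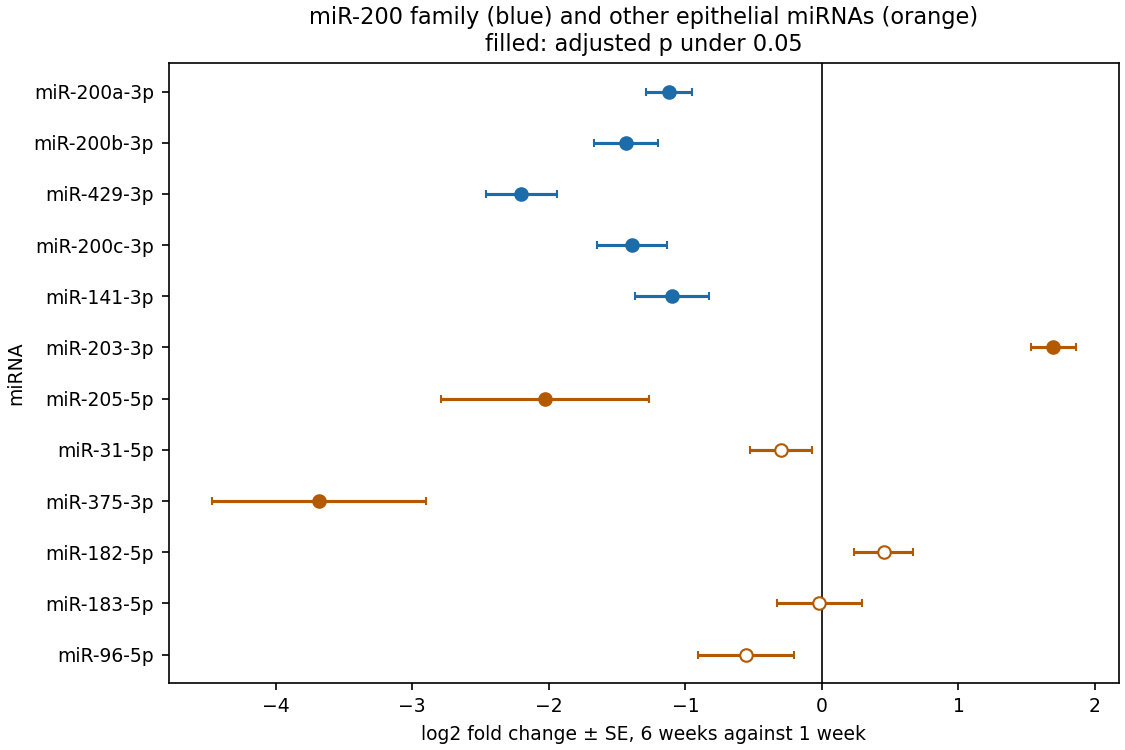
Log2 fold change with its SE (horizontal axis) of 6 weeks against 1 week for the 5 miR-200 members (blue) and 7 other epithelial miRNAs (orange); filled points have an adjusted p under 0.05. The blue points lie between -2.20 and -1.10, and the orange points between -3.68 and 1.69 on both sides of 0.

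Summed levels of the blood-cell marker lists were lower at 6 weeks than at 1 week, as was that of the family. The summed leukocyte list was at 5345 ± 236 CPM at 1 week and 2472 ± 286 CPM at 6 weeks, and the erythroid list at 752 ± 195 and 346 ± 134 CPM (SD, n = 5 each). Within the erythroid list, miR-451a did not pass, at 279 ± 127 and 233 ± 104 CPM (log2 fold change -0.26 ± 0.35, edgeR adjusted p = 0.509). MiR-144-3p of that list fell from 229 ± 98.5 to 60.5 ± 19.5 CPM (-1.91 ± 0.36, edgeR adjusted p = 4.07e-05). The muscle list was at 449 ± 414 CPM, from 61.3 to 1128 CPM by library, and then at 5.68 ± 2.88 CPM. The hepatocyte list was at 453699 ± 70780 CPM and then at 708099 ± 41708 CPM, whereas its share of raw counts was 69.8% and 69.7%. The part of these other cells in the family's fall was not tested.

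The miRNAs most like the family's summed level over the 25 libraries, by Pearson's r of log2 CPM among 138 candidates, were miR-134-5p (0.914), miR-409-3p (0.911), miR-379-5p (0.907), miR-223-3p (0.905) and miR-206-3p (0.897). MiR-134-5p, miR-409-3p and miR-379-5p come from the imprinted Dlk1-Dio3 locus, miR-223-3p is a myeloid and miR-206-3p a skeletal muscle miRNA. These values rest on the step between 1 week and the adult ages, and Spearman's rho for the same miRNAs was 0.510 to 0.621. Their falls were larger than those of the members, with log2 fold changes from -2.30 for miR-223-3p to -8.13 for miR-206-3p. Within the 20 adult libraries the highest r was 0.374, for miR-10b-5p, followed by miR-10a-5p at 0.371.

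The members themselves moved together in the adult libraries, apart from miR-141-3p. Pearson's r of log2 CPM over the 20 libraries was 0.729 for miR-200b-3p with miR-200c-3p, 0.715 for miR-429-3p with miR-200c-3p and 0.684 for miR-200a-3p with miR-429-3p. Within the chromosome 4 cluster r ran from 0.594 to 0.684, and the 3 members of that cluster had r of 0.567 to 0.729 with miR-200c-3p on chromosome 6. MiR-141-3p had r of -0.09 with its cluster neighbour miR-200c-3p, 0.419 with miR-200a-3p, the member with its seed, -0.02 with miR-200b-3p and -0.14 with miR-429-3p. The points share library, depth and scaling, and near-identical sequences may share reads, so the values are descriptions.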

How the data were processed

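Small RNA was counted in 25 libraries, 5 at each of 5 ages. The labels give each library its own number, taken here as 1 mouse each. Per the labels, vesicles were collected by ultracentrifugation and libraries were made with a QIAseq miRNA kit and sequenced in pairs. The authors deposited raw counts per miRNA; the submitters' processing notes name Bowtie, edgeR and mm10. Whether counts are reads or unique molecular identifiers is not given in the sources used here. Counts were analysed in 1 quasi-likelihood model of all libraries (edgeR 4.0.16, limma 3.58.1, R 4.3.3; TMM, robust spread, filterByExpr, 391 entries tested). DESeq2 1.42.0 was an alternative. Calls are at an adjusted p of 0.05. The SE, an approximation, divides the size of each log2 change by the root of its F. Ratios had 0.5 added to each count (scipy 1.17.1). The model was tested on simulated data. Sequences and coordinates are from RefSeq (GRCm38.p6). Named were the 5 members, their 5p arms, the other epithelial list and the 5 miRNAs most like the family. Members, lists and tests were chosen with earlier results of these data known.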

Additional observations from a re-analysis of the deposited data

How the results depend on the processing

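For 6 weeks against 1 week, the members were called lower in 185 of 185 values from alternative scalings, filters, tests, samples or left-out libraries. These are not separate checks, since fits that left out a library of 6, 12 or 14 months could hardly change this comparison. The values per miR-122-5p count were judged by an unadjusted exact permutation p of 0.00794. In pairwise adult comparisons, 0 of 745 such values were called and 50 changed sign, in 12 of 20 results. Leaving out 1 library, the members called over 5 ages numbered 4 to 5, and all entries called 286 to 318 over 5 ages (322 without both mice 6 and 7) and 273 to 298 for 6 weeks against 1 week. Over 4 adult ages 10 entries were called, 25 without a filter, 25 by DESeq2, 5 with log2 library total as covariate, 31 with adult libraries only, 8 without both mice 6 and 7, and 9 to 22 leaving out 1 library. For 6 months against 6 weeks 7 were called, 3 with library totals alone, 4 with a stricter filter, 3 with the covariate, 15 with adult libraries only, 3 without mice 6 and 7, and 1 to 13 leaving out 1 library. For 12 against 6 months 0 were called, and 3 without a filter. For 14 months against 6 weeks 15 were called, 24 without a filter, 9 among miRNA names only, 7 with the covariate, 28 with the 2 ages alone, 23 with adult libraries only, and 8 to 22 leaving out 1 library. The cause was not tested. Fits with adult libraries only and without mice 6 and 7 (the shallowest) were chosen after seeing the data. No paired analysis was possible because no number is shared between mice of different ages. Counts down to 13 in a library limit miR-141-3p and miR-200c-3p.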
